A study of Canis lupus familiaris with 2 samples.

Results

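The RNA levels of 47 DNA replication genes were compared between MDCK cells grown under 2-cm-high and under 50-cm-high culture medium. The genes were taken by symbol from a list covering origin licensing, the replicative helicase and its activation, the fork enzymes, nucleotide supply and entry into S phase. All 47 were among the 23510 features of both files, and all 47 passed the minimum of more than 1 FPKM at both heights, as did 11057 features in all. FPKM is a read number divided by exon length and by library size, so levels can be compared between genes per length. MDCK is an established epithelial line from dog kidney that forms a sheet of columnar cells on a semipermeable membrane. Both cultures were kept for 3 days on culture inserts in EMEM with serum, and they differed in the water pressure from the medium column, labelled as 2 cm H2O and 50 cm H2O and called 2 cm and 50 cm from here on. Each group was 1 culture and 1 library of the same cell line. There were no replicates, no difference could be set against replicate error, and no test was made.

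A cell prepares its origins for replication in G1, when the origin recognition complex (ORC), CDC6 and CDT1 load the MCM2-7 helicase onto DNA. At the start of S phase the kinase CDC7 with DBF4, together with CDC45, GINS and MCM10, turns the loaded helicase into an active one, and polymerases, the sliding clamp PCNA and the ligase LIG1 copy and seal the strands. Many of these genes are known targets of E2F transcription factors and are transcribed mainly around the passage from G1 to S. Epithelial cells that stop dividing usually lose much of this RNA, which is why MCM proteins serve as markers of proliferating cells.

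The DNA replication genes were mostly a little higher at 50 cm. Of the 47 genes, 41 (87.2%) had a higher FPKM value at 50 cm than at 2 cm, compared with 52.6% of all features above 1 FPKM. The median ratio of 50-cm over 2-cm FPKM was 1.16 in these genes (log2 ratio 0.21) and 1.01 over all features (log2 ratio 0.01). The changes were small. None of the 47 genes differed by more than 1.5-fold in either direction, whereas 2.13% of all features were more than 1.5-fold higher and 5.06% more than 1.5-fold lower. None differed by more than 2-fold, against 1.67% of all features. With the limit at 25%, 9 genes (19.1%) were higher by more than this at 50 cm, against 10.5% of all features. None was lower by more than 20%, the same step in the other direction, against 13.3% of all features. Levels ran from 6.45 FPKM (CCNE2) to 287 FPKM (RRM2) at 2 cm and from 6.05 FPKM (MCM8) to 310.2 FPKM (RRM2) at 50 cm, and the 47 genes together took 0.435% of the summed FPKM at 2 cm and 0.479% at 50 cm. The 9 genes more than 25% higher were ORC1, ORC4, CDC6, CDT1, CDC45, GINS3, TK1, CCNE1 and CCNE2.

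Most single ratios lay within the spread of features of similar level. The log2 ratio of each gene was compared with those of the 500 features nearest in expression, whose scaled median absolute deviation was 0.17 to 0.30. Relative to the median of those features, the replication genes lay between 1.27 deviations below and 2.26 deviations above. Of the 47, 28 (59.6%) lay within 1 deviation, against 66.3% of all features. More than 1 deviation above lay 17 genes (36.2%), against 16.4% of all features, and more than 1 deviation below lay ORC3 and RFC4 (4.26%), against 17.3%. ORC1, ORC4, CDC6, CDC45 and CCNE1 (10.6%) lay more than 2 deviations above, against 4.07% of all features, and none lay more than 2 deviations below, against 5.16%. This spread combines measurement noise with differences between genes and does not replace replicate cultures. In a culture measured as a whole, a change in the share of cells in S phase and a change in RNA per cell cannot be told apart.

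**Figure D1:**
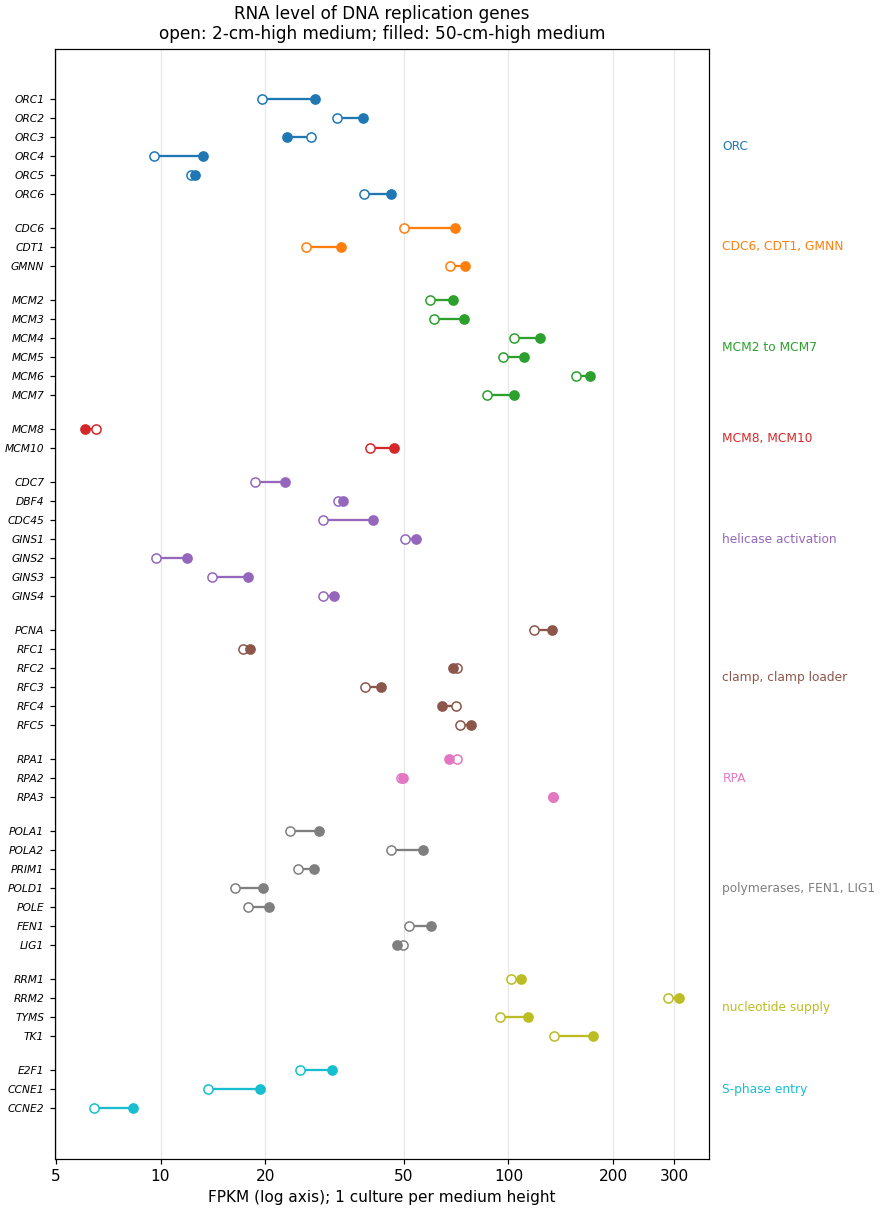
RNA level (FPKM, log axis) of each of the 47 DNA replication genes in the 2-cm-high-medium culture (open circles) and the 50-cm-high-medium culture (filled circles), grouped and coloured by role, with 1 culture per medium height. The filled circle lies to the right of the open one for 41 genes, and the exceptions are ORC3, MCM8, RFC2, RFC4, RPA1 and LIG1.

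The origin licensing genes were higher at 50 cm for 8 of 9 members, with a median ratio of 1.20. ORC is a complex of 6 subunits that binds origins and carries the loading reaction. ORC1, the subunit whose protein is known to vary most through the cell cycle, had 19.6 FPKM at 2 cm and 27.8 FPKM at 50 cm, a ratio of 1.42 and the largest among the 47 genes. ORC4 went from 9.55 to 13.2 FPKM (ratio 1.38). ORC2 had 32.2 and 38.2 FPKM, and ORC6 had 38.4 and 46.0 FPKM, ratios of 1.19 and 1.20. ORC5 was nearly level at 12.2 and 12.6 FPKM (ratio 1.03). ORC3 was the exception, with 27.1 FPKM at 2 cm and 23.0 FPKM at 50 cm, a ratio of 0.85 that was the lowest of all 47 genes. The subunits of this one complex thus covered the whole range of ratios seen in the replication genes.

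CDC6, the ATPase that joins ORC to recruit the helicase, had 50.2 FPKM at 2 cm and 70.2 FPKM at 50 cm (ratio 1.40). CDT1, which escorts MCM2-7 to the origin, had 26.2 and 33.0 FPKM (ratio 1.26). GMNN encodes geminin, the inhibitor that binds CDT1 and prevents a second round of licensing. Its level was 68.0 FPKM at 2 cm and 75.2 FPKM at 50 cm (ratio 1.11). The inhibitor was therefore the more abundant RNA in both cultures, and the level of CDT1 relative to GMNN was 0.386 at 2 cm and 0.439 at 50 cm.

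The genes of the MCM2-7 helicase, a ring of 6 related ATPases, had ratios close to each other. All 6 were higher at 50 cm, with ratios from 1.10 to 1.22, so that the highest and the lowest log2 ratio were 0.15 apart. MCM7, whose protein the study stained as a marker of DNA replication, had 86.5 FPKM at 2 cm and 104 FPKM at 50 cm (ratio 1.20). This ratio ranked 1679 among the 11057 features. The study reported comparable shares of stained cells under the lower and the higher medium. It also reported slower growth under the higher medium, with no apparent arrest in a phase of the cell cycle. The stained images were not analysed here, and an RNA level of a whole culture is a different quantity from a share of stained nuclei. How the RNA levels relate to the staining or to the slower growth was not tested. MCM6 was the most abundant of the ring subunits, at 156 and 171 FPKM, and had the smallest ratio of them. MCM4 had 104 and 123 FPKM (ratio 1.18), and MCM5 had 96.6 and 111 FPKM (ratio 1.15). MCM3 went from 61.2 to 74.4 FPKM (ratio 1.22), and MCM2 from 59.4 to 69.4 FPKM (ratio 1.17). Although the subunits enter the ring in equal number, the RNA of MCM6 was 2.63 times that of MCM2 at 2 cm and 2.47 times at 50 cm. The order of the levels was the same in both cultures, with MCM6 highest, followed by MCM4, MCM5, MCM7, MCM3 and MCM2. The mean over the 6 genes was 94.0 FPKM at 2 cm and 109 FPKM at 50 cm.

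MCM8 and MCM10 share the name but are not part of this ring. MCM8, a helicase of recombination repair, was weakly expressed, with 6.54 FPKM at 2 cm and 6.05 FPKM at 50 cm (ratio 0.93). MCM10, which binds the active fork helicase, had 40.0 and 46.8 FPKM (ratio 1.17), a ratio within the range of MCM2 to MCM7.

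All 7 genes of helicase activation were higher at 50 cm, with a median ratio of 1.21. CDC45, the cofactor that joins MCM2-7 and GINS into the active helicase, had 29.3 FPKM at 2 cm and 40.9 FPKM at 50 cm (ratio 1.40). CDC7, the kinase that phosphorylates MCM subunits, had 18.7 and 22.7 FPKM (ratio 1.21). Its activating subunit DBF4 had 32.3 and 33.5 FPKM (ratio 1.04), and it lay below 1 when the log2 ratios were recentred on features of the same expression decile. The RNA of DBF4 relative to CDC7 was accordingly 1.72 at 2 cm and 1.47 at 50 cm.

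The GINS complex has 4 subunits in equal number, but their RNA levels spread widely. GINS1 had 50.5 FPKM at 2 cm and 54.3 FPKM at 50 cm (ratio 1.08), and GINS4 had 29.3 and 31.6 FPKM (ratio 1.08). GINS3 went from 14.1 to 17.9 FPKM (ratio 1.27), and GINS2 from 9.73 to 11.9 FPKM (ratio 1.22). The 2 less abundant subunits thus had the larger ratios, and GINS1 exceeded GINS2 by 5.19 times at 2 cm and 4.58 times at 50 cm.

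The clamp with its loader and the single-strand binding protein had the median ratios closest to 1 among the roles with at least 3 genes. PCNA, the ring that holds polymerases on DNA, had 118 FPKM at 2 cm and 134 FPKM at 50 cm (ratio 1.13). Replication factor C, which opens and loads this ring, had genes on both sides of 1. RFC3 had 38.6 and 43.1 FPKM (ratio 1.12), RFC5 had 72.8 and 77.9 FPKM (ratio 1.07), and RFC1 had 17.3 and 18.1 FPKM (ratio 1.05). RFC2 was lower at 50 cm, with 71.2 and 69.4 FPKM (ratio 0.98), as was RFC4, with 70.6 and 64.5 FPKM (ratio 0.91). The median ratio of PCNA and the RFC genes was 1.06.

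RPA is the trimer that coats single-stranded DNA at forks and at sites of repair. RPA1 had 71.3 FPKM at 2 cm and 67.5 FPKM at 50 cm (ratio 0.95). RPA2 had 49.0 and 49.9 FPKM (ratio 1.02), and RPA3 had 134 FPKM in both cultures (ratio 1.003). The median log2 ratio of the RPA genes was 0.004 and carried no direction, because it was below 0 under each other scaling tried, with values of -0.01 to -0.07.

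Among the polymerases and lagging-strand enzymes, 6 of 7 genes were higher at 50 cm, and the median ratio was 1.16. Polymerase alpha with its primase starts each strand. Its subunit POLA2 went from 46.1 FPKM at 2 cm to 56.9 FPKM at 50 cm (ratio 1.24), POLA1 from 23.5 to 28.6 FPKM (ratio 1.22), and the primase subunit PRIM1 from 24.8 to 27.7 FPKM (ratio 1.12). The catalytic subunits of the main replicative polymerases were similar to each other, POLD1 with 16.4 and 19.7 FPKM (ratio 1.21) and POLE with 17.8 and 20.5 FPKM (ratio 1.15). FEN1, the nuclease that trims Okazaki fragments, had 51.7 and 60.0 FPKM (ratio 1.16). LIG1, which joins the trimmed fragments, was the exception with 49.8 FPKM at 2 cm and 47.7 FPKM at 50 cm (ratio 0.96).

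The genes of nucleotide supply had the highest median level of the roles, 118 FPKM at 2 cm and 145 FPKM at 50 cm. All 4 were higher at 50 cm, with a median ratio of 1.14. TK1, the thymidine kinase of the salvage route, had 135 FPKM at 2 cm and 175 FPKM at 50 cm (ratio 1.30). TYMS, the thymidylate synthase of the de novo route, had 94.5 and 114 FPKM (ratio 1.21). Ribonucleotide reductase makes deoxyribonucleotides from ribonucleotides, and its subunits had ratios nearer to 1. RRM2, which had the highest level of all 47 genes, had 287 and 310.2 FPKM (ratio 1.08), and RRM1 had 102 and 109 FPKM (ratio 1.07). The RNA of RRM2 exceeded that of RRM1 by 2.83 times at 2 cm and 2.85 times at 50 cm. The thymidine route thus had larger ratios than the reductase, a difference that could not be tested.

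The genes of S-phase entry had the highest median ratio of the roles, 1.30 over 3 genes. CCNE1, encoding cyclin E1, which activates CDK2 at the end of G1, had 13.7 FPKM at 2 cm and 19.3 FPKM at 50 cm (ratio 1.41). Its relative CCNE2 had 6.45 and 8.35 FPKM (ratio 1.30). E2F1, the transcription factor that drives many replication genes, had 25.1 and 31.1 FPKM (ratio 1.24). All 3 lay below the median level of the 47 genes in both cultures, and CCNE2 lay in the third expression decile, where the spread of the nearest features was 0.29.

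**Figure D2:**
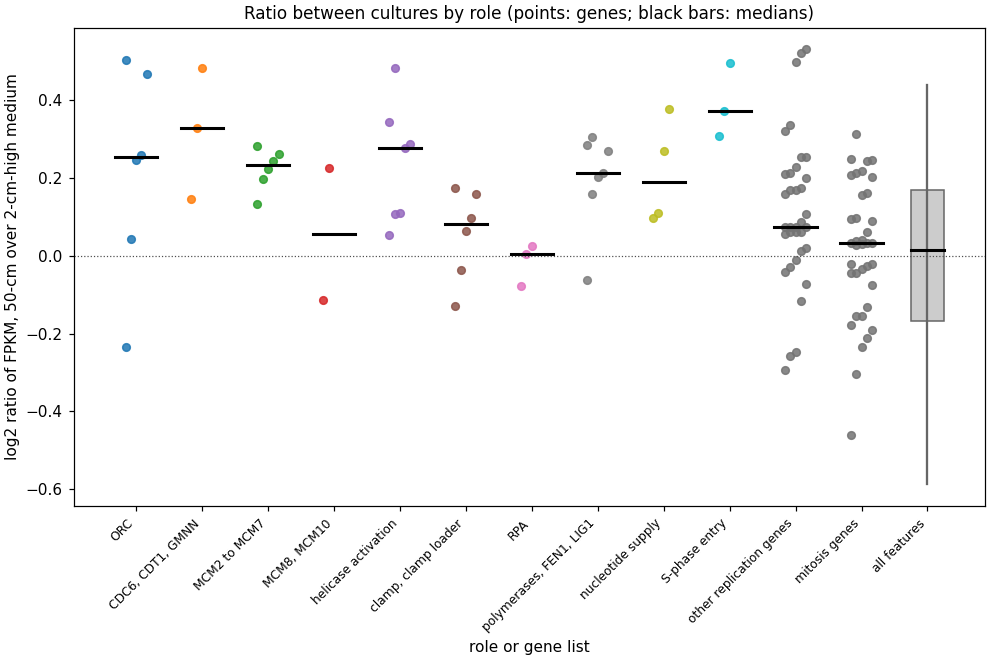
Log2 ratio of FPKM (50-cm over 2-cm-high medium) of each DNA replication gene by role, with 35 other replication genes and 37 mitosis genes, where each point is 1 gene and black bars are medians. The last column shows all 11057 features, with the box from the 25th to the 75th percentile (-0.17 to 0.17), the line from the 5th to the 95th percentile and a median of 0.01, and the medians of MCM2-7 (0.23) and helicase activation (0.28) lie above this box.

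Expression level moved with the direction of the ratio across all features. When the 11057 features were divided into 10 deciles by the mean of their log2 FPKM values, 35.3% of the lowest decile but 67.6% of the highest decile were higher at 50 cm. The replication genes were mostly well expressed, with 41 of 47 in the upper 5 deciles, where 62.5% of all features were higher. Of these 41 genes, 36 (87.8%) were higher. Relative to the median of its own decile, the ratio was higher for 38 of the 47 genes, and the median log2 ratio recentred in this way was 0.16. The part that the level dependence has in the result of any single gene was not tested.

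**Figure D3:**
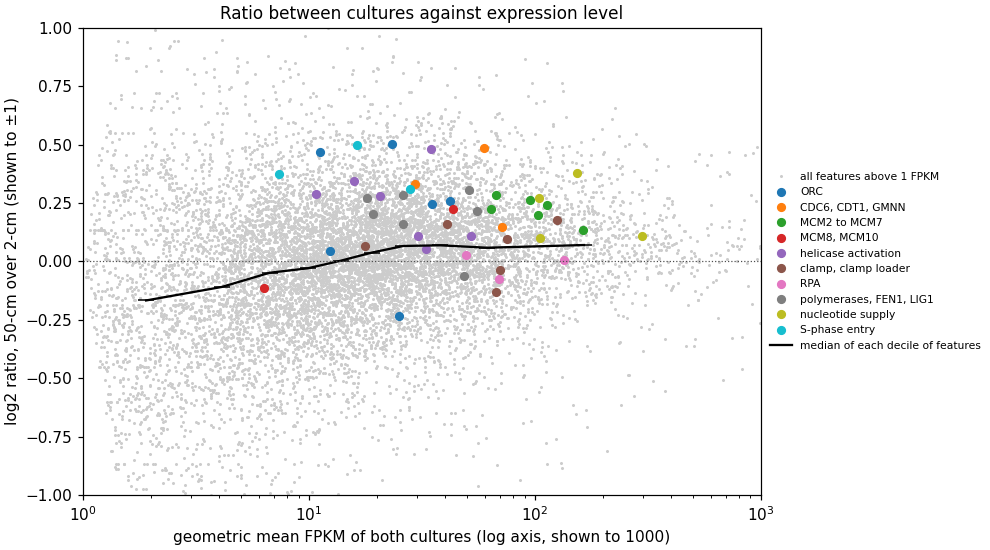
Log2 ratio (50-cm over 2-cm-high medium) against the geometric mean FPKM of both cultures (log axis), with all features above 1 FPKM in grey, the DNA replication genes coloured by role and a black line through the median of each decile of the features. The line climbs from -0.17 in the lowest decile to 0.07 in the highest, and 38 of the 47 replication genes lie above the median of their decile.

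Low values in the files lie on steps of whole reads, and the replication genes were checked for such steps. Among features below 0.1 FPKM, 219 of 574 had a ratio within 0.2% of 1.098, which is the ratio of 1 read in each library. A ratio of 1.098 therefore corresponds to equal numbers of reads, and 30 of the 47 replication genes (63.8%) lay above it, against 30.0% of all features. In the upper 5 expression deciles these shares were 63.4% of 41 replication genes and 35.0% of all features. Only RFC2 and POLA2 had a ratio within 0.05% of one that at most 10 reads in each library would give, or 2 of 47, and 3.95% of all features had such a ratio. The match used the ratio alone and not the level, so it cannot show that a gene rests on few reads. RFC2 had 71.2 FPKM at 2 cm and 69.4 FPKM at 50 cm, and POLA2 had 46.1 and 56.9 FPKM, far above 0.1 FPKM. The read numbers are not given in the files, so no counting interval could be set.

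Genes of the same process outside the list had a smaller median ratio. Of a further 39 replication genes, 35 were in the files, and 27 of these (77.1%) were higher at 50 cm, against 52.6% of all features. Their median ratio was 1.05. DSCC1, a subunit of an alternative clamp loader, had 12.9 FPKM at 2 cm and 18.6 FPKM at 50 cm (ratio 1.44). TIPIN, a fork protection factor, had 36.4 and 51.4 FPKM (ratio 1.41). The lowest ratios were those of POLD4 (0.82, from 55.3 to 45.2 FPKM), RNASEH2C (0.84, from 46.0 to 38.5 FPKM) and MCM9 (0.84, from 3.73 to 3.14 FPKM). Of the 35 genes, 4 were more than 25% higher, a share close to the 10.5% of all features. More than 20% lower were 0 of them, against 13.3% of all features.

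Genes of mitosis, the phase after replication, were divided in direction. Of 38 listed genes 37 were in the files, and 21 (56.8%) were higher and 16 lower at 50 cm. This share was near that of all features, of which 52.6% were higher, or 62.5% in the upper 5 expression deciles. Their median log2 ratio of 0.03 was below 0 with quantile normalization and with recentring by expression decile. The highest ratios were those of PLK1 (1.24, from 43.4 to 53.9 FPKM), ANLN (1.19, from 109.5 to 130.0 FPKM) and CDK1 (1.19, from 133 to 158 FPKM). CDC25C, the phosphatase that activates CDK1, had the lowest ratio (0.73, from 9.98 to 7.26 FPKM), followed by CENPF (0.81, from 41.5 to 33.6 FPKM) and MKI67 (0.85, from 70.5 to 59.9 FPKM). MKI67 encodes the proliferation antigen Ki-67, and TOP2A, the topoisomerase of condensing chromosomes, had 109 and 107 FPKM (ratio 0.99). The RNA of MCM7 relative to MKI67 was consequently 1.23 at 2 cm and 1.73 at 50 cm. With 1 culture per medium height, a difference between the replication and the mitosis genes could not be tested.

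**Figure D4:**
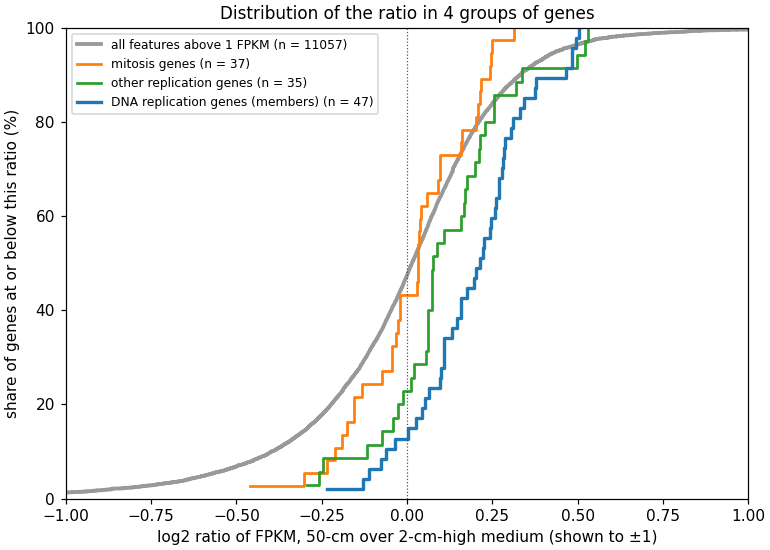
Cumulative share of genes (%) by log2 ratio of FPKM (50-cm over 2-cm-high medium) for the 47 DNA replication genes, 35 other replication genes, 37 mitosis genes and all 11057 features above 1 FPKM. The curve of the 47 replication genes crosses 0 with 12.8% of genes at or below it, against 47.4% for all features, and the curve of the mitosis genes crosses it close to all features.

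The label of kidney epithelium was checked with markers. KRT8, KRT18, EPCAM, CDH1 and PAX8 ranged from 65.1 to 1641 FPKM at 2 cm and from 57.6 to 1561 FPKM at 50 cm, while the kidney cadherin CDH16 was at 1.96 and 0.676 FPKM. None of the 6 fibroblast or 4 endothelial markers reached 1 FPKM in either culture, and the leukocyte markers PTPRC and CD3E were listed at 0 FPKM. The part that cell identity, marked by CDH16, has in the ratios of the replication genes was not tested.

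Overlap with other genes may limit some values. On the dog assembly UU_Cfam_GSD_1.0, to which all 47 symbols matched, 17 of the replication genes share part of their span with another protein-coding gene. Among them were ORC1, ORC4, CDC45 and CCNE2, 4 of the 9 genes more than 25% higher, and MCM7, which overlaps AP4M1 and the miRNA genes MIR106B, MIR93 and MIR25. How reads in such stretches were assigned is not given in the sources used here. Whole gene spans were compared without regard to strand or exons, and the authors mapped the reads to another assembly, CanFam3.1. An effect of the overlaps on the values was not tested. Of the 30 genes without such an overlap, 26 were higher at 50 cm, against 52.6% of all features, and their median log2 ratio was 0.21. The share among all features without an overlap was not computed.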

How the data were processed

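RNA was sequenced from 1 MDCK culture per medium height. The authors made stranded mRNA libraries, read as 75-base single ends, used the dog genome CanFam3.1, and deposited FPKM values. The submitters' processing notes name TopHat2 2.0.13, SAMtools 0.1.19, Bowtie2 2.2.3 and Cuffnorm 2.2.1. FPKM values depend on gene length and library scaling, and neither the annotation nor the scaling method is given in the sources used here. Read depth is unknown.

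Ratios of FPKM at 50 cm over FPKM at 2 cm were taken with no pseudocount, and features needed more than 1 FPKM at both heights, the minimum of the study. Counts past 25% higher (20% lower), 1.5-fold and 2-fold and medians were set beside those of all features. With 1 culture a group nothing was tested. All 47 listed genes were used. MCM2 to MCM7 were named singly. For other roles the naming rule asked for members past 25% or the extremes, and the rest were added after their values were seen. Of other lists, the 3 highest and 3 lowest ratios were named, with MKI67, TOP2A and CDKN1A. Single values of some genes of these lists and of the marker lists are not reported here, although the counts and medians include them. The members and lists were chosen with earlier results of these data known. Alternatives covered the pseudocount, the FPKM minimum and the scaling. Planned promoter motif counts were not made, because no promoter sequence was used here. The scripts were checked on simulated data and ran in Python 3.11.15 with numpy 2.4.6, pandas 2.3.3 and matplotlib 3.10.9.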

Additional observations from a re-analysis of the deposited data

How the results depend on the processing

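The number of DNA replication genes higher at 50 cm was 41 of 47 with the values as deposited and 38 to 41 under the other scalings, pseudocounts and FPKM minima tried, and their median log2 ratio was 0.16 to 0.21. None passed 1.5-fold under any of these. The median log2 ratio of the RPA genes changed sign with recentring on the median of all features (-0.011), rescaling to equal sums (-0.0287), quantile normalization (-0.0644) and recentring by expression decile (-0.0662). The median of the mitosis genes changed sign with quantile normalization (-0.0381) and recentring by expression decile (-0.0315). Recentring by decile and leaving out genes that overlap another protein-coding gene were chosen after seeing the data. The latter left 26 higher genes and 5 more than 25% higher, since it left only 30 genes. Single genes changed sign only near 0, namely RPA3, RPA2 and, by decile, DBF4. All 47 genes passed each FPKM minimum, so those settings do not bear on them. The limits are 1 culture per group, unknown depth and an unknown annotation, and a ratio here cannot be told apart from variation between cultures.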

Other observations

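Regulators of S-phase entry and of checkpoints, which are not replication enzymes, had ratios from 0.61 to 2.35. This range was wider than that of the DNA replication genes (0.85 to 1.42). Of 32 listed genes, 30 passed 1 FPKM at both medium heights. Of these, 20 (66.7%) were higher and 10 lower at 50 cm, against 52.6% of all features higher. The median ratio was 1.09. CCND1, encoding cyclin D1, had 45.7 FPKM at 2 cm and 107 FPKM at 50 cm (ratio 2.35), and was the only one past 2-fold. CDKN1A, encoding the CDK inhibitor p21, had 51.0 and 88.6 FPKM (ratio 1.74), and MYC had 57.7 and 88.0 FPKM (ratio 1.53). CCND1, which promotes entry into S phase, and CDKN1A, which restrains it, were thus both higher at 50 cm.

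The lowest ratios were those of CDKN2B (0.61, from 2.48 to 1.51 FPKM), TFDP2 (0.66, from 4.29 to 2.82 FPKM) and CDKN1B (0.68, from 47.3 to 32.3 FPKM). TFDP2 encodes a partner of E2F proteins, and CDKN1B encodes the CDK inhibitor p27. CDKN2A was listed at 0 FPKM in both cultures. The data hold 1 culture per medium height, and none of these differences was tested.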
